A study of Homo sapiens with 46 samples.

Results

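RBM3 and CIRBP encode the cold-inducible RNA-binding proteins, small glycine-rich proteins with a single RNA recognition motif. They were taken by gene symbol from the deposited table of gene counts, 2 genes of the 58735 listed, and followed through all 46 libraries by treatment and by batch. They were chosen by their measured levels in these same libraries, against control, between COX1 and COX2 and between batches, so their own levels and differences are given as a description with no test. Tests are given only for other genes.

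In mammalian cells mild cooling raises the mRNA and protein of both genes while general protein synthesis slows, and heat shock lowers them. Both proteins bind mRNA, favour the translation or stability of their targets, and have been tied to hypoxia, to circadian gene expression and to the choice of polyadenylation sites. CIRBP mRNA responds to temperature largely through its splicing, and CLK kinases, which phosphorylate SR splicing proteins, are more active when cells are cooler.

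The libraries were poly(A)-selected RNA of HEK293T, a human embryonic kidney line whose genotype the labels give as WT and which the study's supplement lists as HEK293-Flp-In T-Rex, a derivative made for inducible transgenes, grown at 37 °C, the 1 culture temperature that the labels give. For 48 h the cells received 2 µM of a chimera of the pCox4 presequence, a peptide that directs import into mitochondria, and a morpholino complementary to 1 mitochondrially encoded mRNA, together with the uptake reagent EndoPorter. The 11 treatments addressed ND1, ND2, ND3, ND4L and ND5 of complex I, CYTB of complex III, COX1, COX2 and COX3 of complex IV, and ATP6 and ATP8 of complex V. Control cells received the pCox4 presequence with no morpholino, so the control does not separate the target sequence from the presence of a morpholino. Each group held 4 libraries except COX2, analysed here without a replicate 1, and ND2, without a replicate 2, with 3 each. The study states that replicates 1 and 2 (batch 1, 22 libraries) and replicates 3 and 4 (batch 2, 24 libraries) were made on different days with different reagent batches. The study calls them biological replicates; the sources used here do not say how the cultures within a batch were separated, and p-values measure the spread between these libraries.

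Total counts lay between 18876395 and 28121898 in 45 libraries and reached 100698084 in COX3 replicate 4, the deepest. The addressed mRNA was lower than in control, by edgeR's quasi-likelihood test with Benjamini-Hochberg adjustment, in COX1 (log2 fold change -1.33, SE 0.069, adjusted p = 2.25e-21), in COX3 (-0.49, SE 0.065, adjusted p = 9.99e-06) and in CYTB (-0.33, SE 0.061, adjusted p = 0.00449). It was higher in ND1, ND2 and ND3. By the same test the addressed mRNA was not called in COX2 (MT-CO2, -0.22, SE 0.080, adjusted p = 0.182) or ATP6 (-0.20, adjusted p = 0.207). Nor was it in ATP8 (0.13, adjusted p = 0.855), ND4L (-0.29, adjusted p = 0.223) or ND5 (-0.19, adjusted p = 0.458). In these groups, COX2 included, the mRNA level does not check the label. The study followed the block itself by labelling newly made mitochondrial proteins after 48 h of silencing. Of 7 genes taken as markers of the line, VIM, KRT8, KRT18, NEFL and INA had means of 54.4 to 421 CPM (counts scaled to library size), while PAX2 was at 7.29 CPM and the neurofilament gene NEFM at 1.03 CPM.

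The deposited coordinates are those of GENCODE release 29 on GRCh38. RBM3 lies on chromosome X, positions 48574449 to 48579066 on the forward strand, with 11 annotated transcripts, of which 3 are protein-coding. CIRBP lies on chromosome 19, positions 1259384 to 1274880 on the forward strand, with 46 transcripts, of which 22 are protein-coding, 13 are marked for nonsense-mediated decay and 10 retain an intron. The deposited values are counts per gene, so they do not show which CIRBP transcripts the reads came from. A change in splicing could appear in them only as a change in the count of the gene. How reads were assigned to genes is not given in the sources used here.

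The stretches around the RefSeq start sites, 250 bases before to 50 after on GRCh38.p14, are shown because they are where transcription of the 2 genes begins and because they share few of the motifs searched. Both are printed 5′ to 3′ on the gene's own strand, RBM3 at chrX:48574234-48574533 and CIRBP at chr19:1269082-1269381. Capitals mark every match, on either strand, to GGGCGG (the GC box), to CCAAT, to TATAA, to CCGGAA (the core bound by ETS factors), and to GAANNTTC and its counterpart TTCNNGAA (pairs of opposed heat shock factor units), with runs of capitals where matches overlap.

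RBM3: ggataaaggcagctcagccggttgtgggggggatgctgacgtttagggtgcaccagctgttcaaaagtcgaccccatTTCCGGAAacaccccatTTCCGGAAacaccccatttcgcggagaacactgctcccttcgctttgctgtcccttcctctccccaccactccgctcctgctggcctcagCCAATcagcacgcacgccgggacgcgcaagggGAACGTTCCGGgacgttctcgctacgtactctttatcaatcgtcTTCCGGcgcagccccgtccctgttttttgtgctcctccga
CIRBP: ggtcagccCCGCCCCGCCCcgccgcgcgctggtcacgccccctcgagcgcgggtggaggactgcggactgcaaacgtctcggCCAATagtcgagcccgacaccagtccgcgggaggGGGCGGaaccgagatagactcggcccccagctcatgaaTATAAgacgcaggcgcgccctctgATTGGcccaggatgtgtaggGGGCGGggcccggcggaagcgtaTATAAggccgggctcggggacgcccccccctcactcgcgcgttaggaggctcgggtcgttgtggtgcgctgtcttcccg

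The RBM3 stretch held 6 matches to CCGGAA, which is in 17.2% of the 35116 RefSeq promoter stretches, 1 to GAANNTTC (6.77% of stretches) and 2 to TTCNNGAA (7.74%). Each of these 2 TTCNNGAA matches coincides with 2 of the CCGGAA matches, in the repeated letters TTCCGGAA, and the GAANNTTC match overlaps a further one. It held 1 CCAAT (34.6% of stretches) and no GGGCGG or TATAA. The CIRBP stretch held 4 matches to GGGCGG (45% of stretches), 2 to CCAAT and 2 to TATAA (20.4%), and none to CCGGAA or to either heat shock factor pair. Neither stretch held TCCCCGCC, the letters of the mild cold-responsive element (8.52% of stretches), or TGACGTCA, the cAMP response element (1.85%). A match is a run of letters and not a measured site.

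RBM3 was the more abundant of the 2 mRNAs per length. Its mean over the 46 libraries was 76.4 RPKM (read counts scaled to library size and to gene length in kilobases), above 97.2% of the protein-coding genes tested, and that of CIRBP was 24.7 RPKM, above 87.6%. Counts behind single values ran from 4639 to 27696 for RBM3 and from 2441 to 19337 for CIRBP. The lengths are the sums of all annotated exons, 3731 bases for RBM3 and 6368 for CIRBP, and the retained introns of CIRBP count towards its length. In bulk RNA a change in the level per cell and a change in the share of cells that hold the mRNA cannot be told apart. All further levels are CPM after TMM scaling, which compare 1 gene between libraries.

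RBM3 in the control libraries was at 247, 257, 276 and 250 CPM in replicates 1 to 4, a mean of 258 ± 13.2 (SD, n = 4). After COX2 silencing it was at 377, 360 and 319 CPM in replicates 2 to 4, a mean of 352 ± 29.9 (SD, n = 3). Every COX2 library was above every control library, a separation in this direction that 3.69% of the 20272 genes tested also had.

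COX3 was the other complex IV treatment with high RBM3, at 357, 320, 353 and 274 CPM (326 ± 38.5, SD, n = 4), and its replicate 4 fell within the range of the control. COX1, another subunit of the same complex, overlapped the control, at 267, 257, 291 and 245 CPM (265 ± 19.3, SD, n = 4). Each COX2 library was above each COX1 library, as was so for 1.59% of all genes tested. In ATP8 the libraries were at 323, 329, 320 and 279 CPM and in ND1 at 313, 320, 342 and 275 CPM. All 4 ATP8 libraries were above all controls, the closest by 279 to 276 CPM, as was so for 1.74% of tested genes. In ND1, replicate 4 lay just under the highest control.

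**Figure D1:**
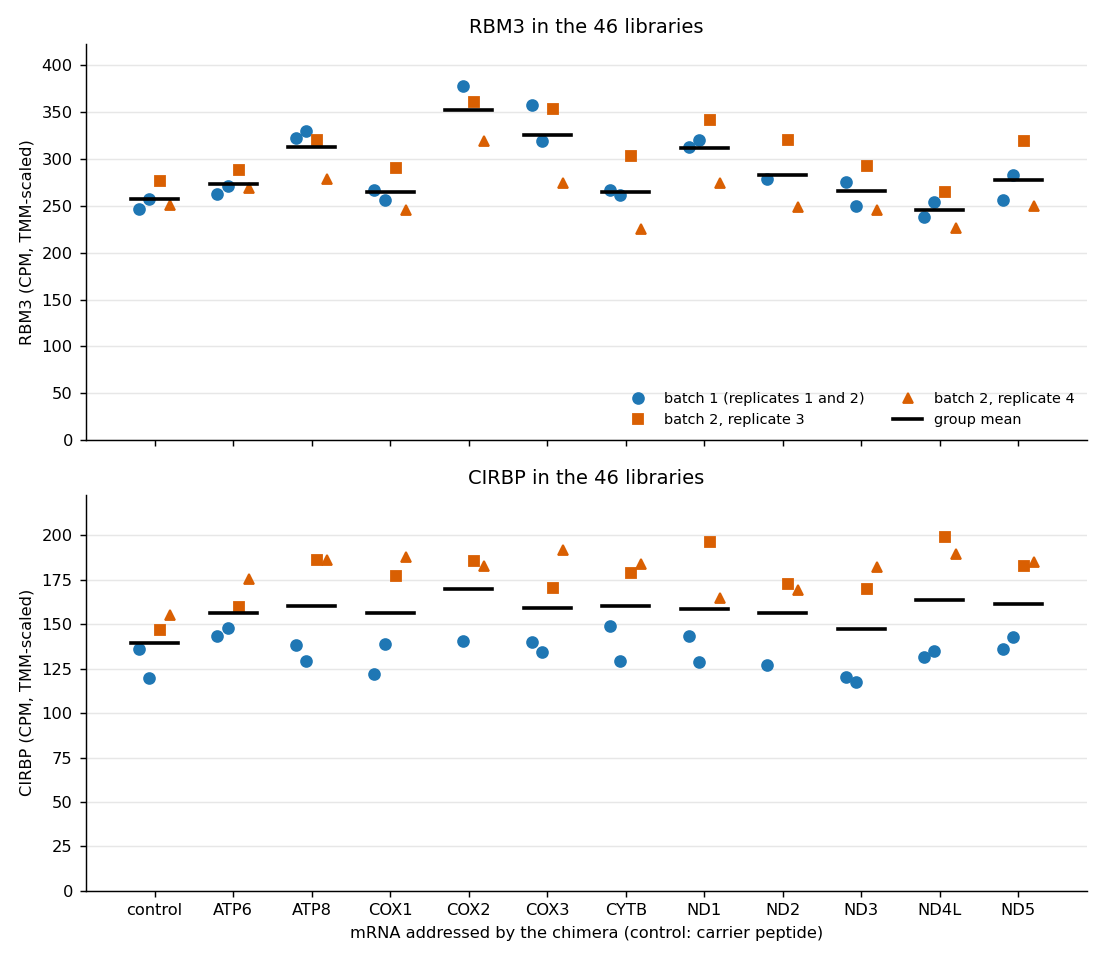
Level of RBM3 (upper) and CIRBP (lower) in CPM after TMM scaling in each of the 46 libraries, by treatment. Points are libraries, blue circles for batch 1 and orange squares and triangles for replicates 3 and 4 of batch 2, and black lines are group means; RBM3 reaches 377 CPM in COX2 against 247 to 276 CPM in control, while CIRBP separates by batch, with batch 1 at 117 to 149 CPM and batch 2 at 147 to 199 CPM.

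The remaining treatments stayed nearer to the control. ND2 libraries were at 279, 320 and 249 CPM in replicates 1, 3 and 4, ND5 libraries at 257, 283, 319 and 250 CPM, and ATP6 libraries at 263, 271, 288 and 269 CPM. ND3 libraries were at 275, 250, 292 and 245 CPM, CYTB libraries at 267, 262, 304 and 225 CPM, and ND4L libraries at 239, 254, 265 and 226 CPM. ND4L held the lowest group mean of the 12, 246 ± 17.1 CPM (SD, n = 4). Of the 42 treated libraries, 27 exceeded the higher control library of their batch and 7 were under the lower one. All treated libraries of a batch were set against the same controls. The share of all tested genes with such counts was not taken, and the neighbouring gene WDR13 also had 27.

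In the fit with a batch term, the RBM3 difference from control on the log2 scale was 0.45 (SE 0.087) for COX2, a 1.37-fold level, and 0.34 (SE 0.081) for COX3, a 1.26-fold level. Without COX3 replicate 4, the deepest library, the COX3 difference was 0.41 for RBM3 and 0.15 for CIRBP. For RBM3 the highest value with 1 library left out also came without replicate 4 in COX2 (0.52) and ATP8 (0.33). In COX1 and ATP6 it came without control replicate 3. The part of depth was not tested. The RBM3 difference was 0.28 (SE 0.081) for both ATP8 and ND1, and between -0.07 (ND4L) and 0.13 (ND2) for the other 7. These 11 differences share the same 4 control libraries. COX2 exceeded COX1 by 0.41 (SE 0.087), and this difference was 0.53 within batch 1, where COX2 is 1 library, and 0.34 within batch 2. It lay between 0.36 and 0.48 when any 1 library of the 2 groups was left out. Ordered by the level relative to the batch mean, the groups ran COX2, COX3, ATP8, ND1, ND2, ND5, ATP6, ND3, COX1, CYTB, control and ND4L. No gap between neighbours in that order exceeded the larger of the 2 groups' SD, the widest being 0.15 on the log2 scale between ND1 and ND2.

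Batch 2 minus batch 1 was -0.01 on the log2 scale for RBM3 (SE 0.034), and the levels varied with the replicate within batch 2. Replicate 4 was below replicate 3 in all 12 groups, control included, at 74.2% to 93.4% of its CPM. The share of all tested genes that were lower in replicate 4 in all 12 groups was 0.814%. In a fit with the replicate number as a block the difference was -0.26 (SE 0.029), against 0.01 (SE 0.031) between replicates 2 and 1, where replicate 2 was the lower in 4 of 10 groups. In the same fit 600 genes were called higher in replicate 4 than in replicate 3 (2.96%) and 625 lower (3.08%), and no gene was called between replicates 2 and 1. CIRBP was lower in replicate 4 in 5 of 12 groups, with a difference of 0.02. What differed between the 2 replicates is not given in the sources used here, and its part in the RBM3 levels was not tested.

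**Figure D2:**
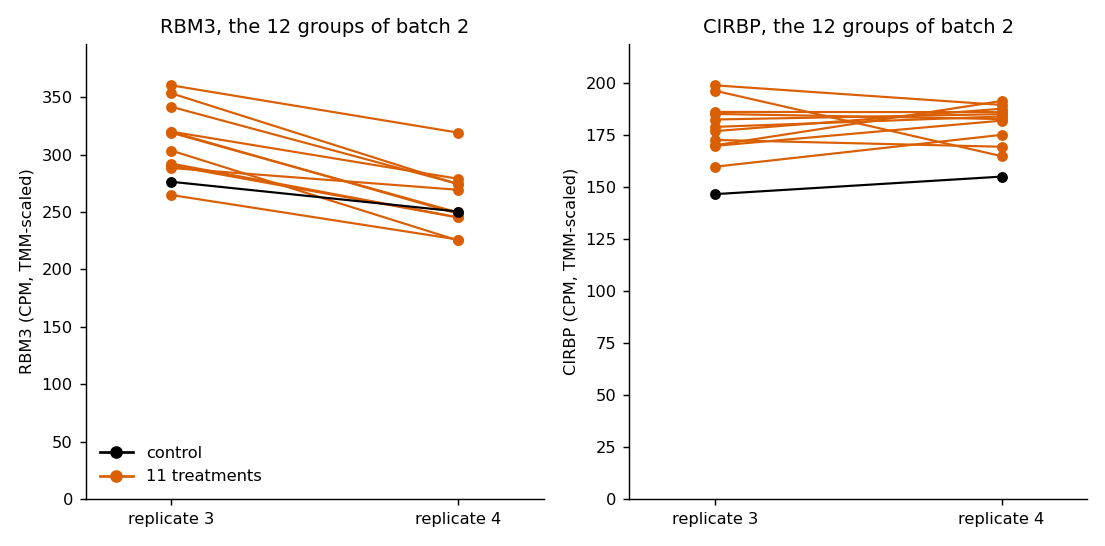
RBM3 (left) and CIRBP (right) in CPM after TMM scaling in replicates 3 and 4 of batch 2, 1 line per group, with control in black and the 11 treatments in orange. In all 12 groups RBM3 is lower in replicate 4, while CIRBP is lower there in 5 of 12, and the control has the lowest CIRBP of the batch in both replicates.

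CIRBP differed most between the batches. It ran from 117 to 149 CPM with a median of 135 in batch 1 and from 147 to 199 CPM with a median of 182 in batch 2. Only control replicate 3, at 147 CPM, kept the ranges from being apart, so 23 of 24 libraries of batch 2 were above the highest of batch 1. The fitted difference was 0.41 on the log2 scale (SE 0.025), a 1.33-fold level, and 0.40 to 0.44 under the other normalizations, filters and tools and with any 1 library left out. Batches differed for a large part of all genes: 29.2% were called higher and 27.9% lower in batch 2. Days and reagent batches cannot be told apart in this comparison.

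Against the control, CIRBP was at 136 and 120 CPM in the control libraries of batch 1 and at 147 and 155 CPM in those of batch 2. In batch 2 all 22 treated libraries, at 160 to 199 CPM, were above both controls, as was so for 1.78% of all tested genes. In batch 1, where 0.375% of tested genes had all treated libraries above both controls, 9 of 20 treated libraries were above the higher control, 10 lay between the 2 controls and ND3 replicate 2, at 117 CPM, was below both.

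Since CIRBP differed between batches and COX2 and ND2 have 1 library in batch 1, its group means are given by batch. ND4L, the group with the lowest RBM3, had means of 133 CPM in batch 1 and 194 CPM in batch 2, COX2 had 141 CPM in its batch 1 library and a mean of 184 CPM in batch 2, and control had 128 and 151 CPM. COX2 libraries were at 141, 185 and 183 CPM in replicates 2 to 4, and ND4L libraries at 131, 135, 199 and 190 CPM. COX1 libraries, at 122, 139, 177 and 188 CPM, overlapped those of COX2.

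With the batch term, CIRBP was above control in each of the 11 treatments, from 0.06 (ND3, SE 0.061) to 0.21 (ND4L, SE 0.061) on the log2 scale, and 11.8% of all tested genes had 11 differences above 0. Within batch 2 alone ND4L was at 0.36, ATP8 at 0.30, COX1 at 0.27 and ND3 at 0.22, and within batch 1 alone the same treatments were at 0.06, 0.07, 0.03 and -0.10. ND2 was at 0.18 in batch 2 and at -0.01 in batch 1, where ND2 is 1 library. COX2 minus COX1 was 0.06 (SE 0.065) for CIRBP, against 0.41 for RBM3. In the order of groups relative to the batch mean, ND4L, COX2, ND5, CYTB, ATP8, COX3, ND1, ATP6, COX1, ND2, ND3 and control, no gap between neighbours exceeded the larger SD.

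**Figure D3:**
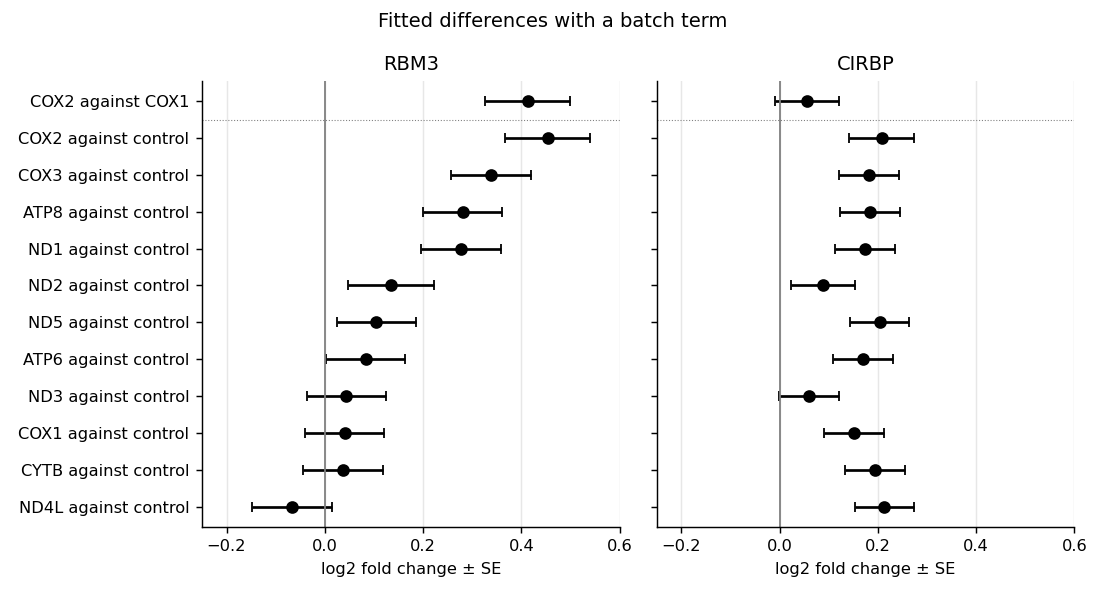
Fitted log2 fold change ± SE for RBM3 (left) and CIRBP (right), each of the 11 treatments against control and, at the top, COX2 against COX1, from the edgeR fit with a batch term. RBM3 spreads from -0.07 in ND4L to 0.45 in COX2, and CIRBP lies between 0.06 and 0.21 in all treatments.

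The 2 genes did not follow each other across libraries. With the batch mean removed, the Pearson correlation of their log2 CPM was 0.124 over 46 libraries, 0.244 over the 22 of batch 1, 0.0268 over the 24 of batch 2 and 0.36 over the 12 group means. These are descriptions over libraries that share batches, treatments and depth.

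Among 10084 other protein-coding genes with a mean of at least 10 CPM, those whose levels were most like RBM3 over the 46 libraries, batch means removed, were FUCA2, a secreted fucosidase (r = 0.901), ODC1, the ornithine decarboxylase of polyamine synthesis (0.871), TXNRD1, the cytosolic thioredoxin reductase (0.844), LCP1, an actin-bundling protein (0.836), and HSPA8, the constitutive HSP70 chaperone (0.827). The most opposed were DAPK1, a death-associated kinase (-0.85), MCAM, a cell adhesion molecule (-0.837), and MYOM2, a myomesin (-0.811). Like RBM3, HSPA8 was lower in replicate 4 than in replicate 3 in 12 of 12 groups, with a difference of -0.12 on the log2 scale (SE 0.023, replicate block fit). Unlike RBM3, it was lower in batch 2 than in batch 1. Of the 26 genes of the heat shock response list described below, 2 were called lower and 1 higher in replicate 4 (edgeR, replicate block). Over all tested genes 3.08% were called lower and 2.96% higher, and the list median was -0.005 on the log2 scale. FUCA2, ODC1, TXNRD1 and LCP1 were also lower in replicate 4 in that fit (differences of -0.16, -0.09, -0.15 and -0.11 on the log2 scale). These genes were picked for likeness to RBM3 over the same libraries, so their replicate differences are a description with no test. Within batch 1, which holds neither of those replicates, the correlations with RBM3 were 0.838 for FUCA2, 0.812 for ODC1, 0.781 for TXNRD1, 0.762 for LCP1 and 0.79 for HSPA8 over 22 libraries. These 22 libraries are part of the 46 over which the genes were picked, so the values are a description and no separate check.

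For CIRBP the most alike genes were NDUFV1, a core subunit of complex I (r = 0.825), SLC25A6, an ADP/ATP carrier (0.808), CYBA, a subunit of NADPH oxidase (0.806), FBL, the nucleolar methyltransferase fibrillarin (0.803), and NDUFS6, another complex I subunit (0.795). The most opposed were WASHC4, of the WASH complex (-0.802), RB1, the retinoblastoma protein (-0.785), and ZBTB1, a zinc finger repressor (-0.769). The share of counts taken by the 50 most counted genes moved with CIRBP (r = 0.479) more than with RBM3 (0.258), and its part in the CIRBP levels was not tested.

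**Figure D4:**
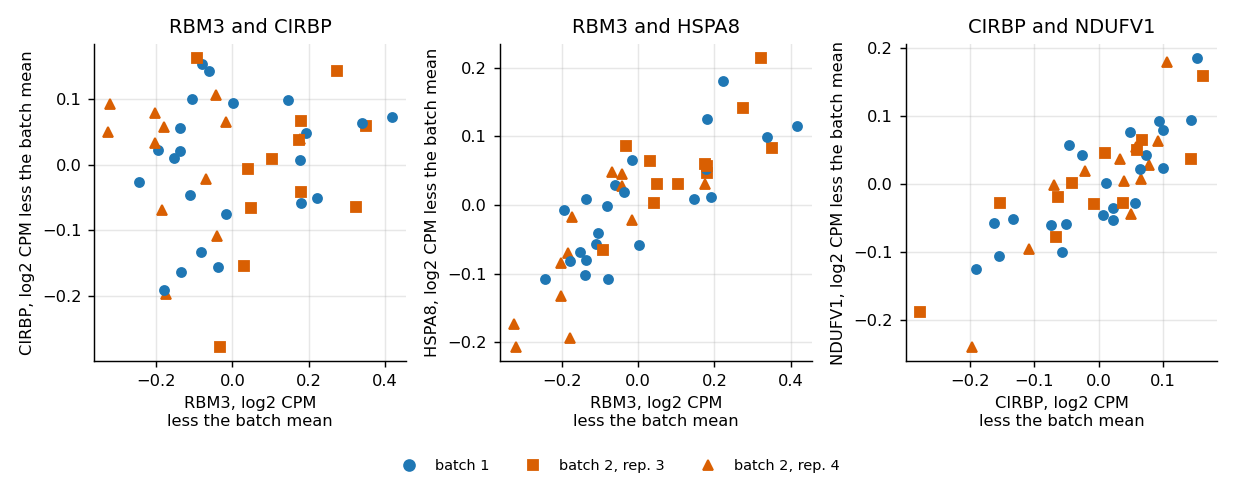
Log2 CPM less the mean of its batch for RBM3 against CIRBP (left), RBM3 against HSPA8 (middle) and CIRBP against NDUFV1 (right), 1 point per library, coloured by batch with triangles for replicate 4. The correlations over 46 libraries are 0.124, 0.827 and 0.825, and the replicate 4 triangles lie mostly to the left in the middle panel.

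Lists of 114 genes of the cold and heat responses and of related pathways were examined beside the 2 genes, of which 113 were tested. The lists were written with earlier results of these data known. Their counts, here and in the batch comparison, are therefore no independent check of these pathways. Over the 11 treatments 4 of 1243 tests against control were called (0.322%, against 0.171% of all tests), with edgeR's quasi-likelihood test at an adjusted p under 0.05 over all genes. With the replicate number as a block 9 were called, the same 4 and CLK4 in ATP8, CLK1 in CYTB, HNRNPD in ND4L, and PRMT1 and BHLHE40 in COX2. The share of all tests called with that block is not given here, and 0.171% belongs to the fit with the batch term. COX2 minus COX1 gave 0 called members by edgeR and 0 by DESeq2, while 0.0395% of all tested genes were called. At an unadjusted p under 0.05 in edgeR there were 7 of the 113, beside 6.90% of all tested genes.

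The CLK kinases and SR proteins, 21 genes, held 3 of these calls, beside 0.469% of all tested genes called in COX2 and 0.148% in ND4L. CLK4 was at 27.8, 27.2, 25.0 and 25.0 CPM in control and at 17.4, 18.7 and 18.0 CPM in COX2 replicates 2 to 4, so all COX2 libraries were below all controls, as was so for 810 of the 20272 genes tested. The difference was -0.51 on the log2 scale (SE 0.098, edgeR adjusted p = 0.00558). CLK1 was at 71.1, 69.9, 75.8 and 70.6 CPM in control and at 54.6, 54.5 and 54.7 CPM in COX2 (-0.38, SE 0.090, edgeR adjusted p = 0.0316). These are the 2 kinases of the family best known for temperature-dependent activity, which mRNA levels do not show. They were lower in the group with the highest RBM3. In COX2 minus COX1, where RBM3 was at 0.41, neither was called. CLK4 was at -0.27 (edgeR adjusted p = 0.671) and CLK1 at -0.12 (edgeR adjusted p = 0.828). In COX1 against control, with RBM3 near control, CLK1 was at -0.26 (edgeR adjusted p = 0.408). A link between these kinases and RBM3 was not tested. Over all treatments CLK4 was below the lower control of its batch in 39 of 42 libraries and CLK1 in 37 of 42, and the mean of the 11 treatments missed the threshold for both (-0.25, SE 0.064, edgeR adjusted p = 0.0651, and -0.21, SE 0.060, edgeR adjusted p = 0.101). Within a batch all treated libraries were set against the same 2 controls, and the share of all tested genes with such counts was not taken. The same holds for the counts of SRSF9 and FKBP4 below.

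Across libraries CLK1 and CLK4 moved against CIRBP (r = -0.569 and -0.542, batch means removed) and not with RBM3 (0.0834 and -0.144). SRSF9, an SR splicing protein, was called higher in ND4L (0.34, SE 0.072, edgeR adjusted p = 0.0201), at 236, 238, 246 and 226 CPM against 202, 206, 165 and 173 CPM in control, and moved with CIRBP (r = 0.662). It was above the higher control of its batch in 34 of 42 treated libraries (mean of the 11 treatments 0.21, SE 0.054, edgeR adjusted p = 0.0645). The CLK4 call was lost without control replicate 4 or COX2 replicate 2, and the CLK1 call without control replicate 3 or 4 or COX2 replicate 2 or 3. The SRSF9 call was lost without control replicate 3 or 4 or ND4L replicate 1 or 3.

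The heat shock response list, 26 chaperones, cochaperones and heat shock factors, had 1 call against control. FKBP4, a cochaperone of HSP90, was higher in CYTB (0.18, SE 0.045, edgeR adjusted p = 0.0418), where 0.548% of all tested genes were called, at 544, 541, 456 and 432 CPM against 465, 482, 403 and 388 CPM. The groups overlapped over both batches, and within each batch both CYTB libraries were above both controls. The difference was of like size in other treatments that missed the threshold, such as COX2 (0.17, edgeR adjusted p = 0.0769), COX1 (0.17, edgeR adjusted p = 0.244) and ATP8 (0.16, edgeR adjusted p = 0.137), and FKBP4 was above the higher control of its batch in 39 of 42 treated libraries (mean of the 11 treatments 0.14, edgeR adjusted p = 0.0511). The CYTB call was lost when control replicate 3 or 4 or CYTB replicate 1, 2 or 3 was left out.

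In the other lists no member was called against control without the block. Closest among the RBMX and hnRNP A and D proteins, relatives with similar RNA recognition motifs, was HNRNPD in ND4L (0.22, SE 0.056, edgeR adjusted p = 0.0687), followed by HNRNPA0 in ND4L (0.14, SE 0.052, edgeR adjusted p = 0.204). Among regulators and modifiers, PRMT1, the arginine methyltransferase that modifies CIRBP, was at 0.21 in COX2 (SE 0.055, edgeR adjusted p = 0.0563), and HIF1A, the hypoxia-inducible factor, at -0.16 in ND4L (SE 0.053, edgeR adjusted p = 0.149). Among mRNAs that the 2 proteins bind or stabilise, CXCL8, at 1.63 to 4.96 CPM a low mRNA, was at 0.66 in ND1 (SE 0.19, edgeR adjusted p = 0.135) and TXN, thioredoxin, at 0.23 in ND1 (SE 0.085, edgeR adjusted p = 0.225).

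The circadian clock and hypoxia lists likewise had no call. BHLHE40, a clock repressor, was at 0.26 in COX2 against control (SE 0.083, edgeR adjusted p = 0.132), and its relative BHLHE41 at 0.32 in COX2 minus COX1 (SE 0.11, edgeR adjusted p = 0.614). NDRG1, a hypoxia-responsive gene, was at 0.18 in COX2 (SE 0.053, edgeR adjusted p = 0.0938) and PDK1, a kinase that inhibits pyruvate dehydrogenase, at 0.26 in ND5 (SE 0.078, edgeR adjusted p = 0.192).

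Between the batches the heat shock list stood on the side opposite to CIRBP. In batch 2, 22 of its 26 members were called lower and 0 higher by edgeR (median -0.21 on the log2 scale, against 0.01 over all tested genes), beside 27.9% of all genes lower and 29.2% higher. The count of 22 was the same under DESeq2, 3 other normalizations, 2 other filters and with any 1 of the 46 libraries left out. The comparison holds 1 batch on each side, so its p-values and calls, here and elsewhere, measure the spread between libraries. They do not measure the spread between batches, and leaving out single libraries does not change this. The 4 members not called were HSF1 and HSF2, the heat shock factors themselves, HSPB1 and CRYAB.

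The inducible HSP70 genes had the widest differences (genes chosen here after their values were seen). HSPA1A ran from 210 to 339 CPM with a median of 262 in batch 1 and from 98.3 to 161 CPM with a median of 121 in batch 2 (-1.08, SE 0.040, edgeR adjusted p = 9.21e-29). HSPA1B had medians of 204 and 104 CPM (-0.95, SE 0.028, edgeR adjusted p = 2.10e-33), and the 2 genes are near-identical copies whose reads the counting could have split. HSPA8 ran from 1476 to 1802 CPM in batch 1 and from 911 to 1219 CPM in batch 2 (-0.60, SE 0.021, edgeR adjusted p = 2.36e-29). For 7 of the 26 members, these 3 among them, every batch 2 library was below every batch 1 library, as was so for 0.602% of all tested genes.

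Several splicing genes stood on the side of CIRBP, again chosen after their values were seen. SRSF5, an SR protein, ran from 169 to 225 CPM in batch 1 and from 242 to 307 CPM in batch 2 (0.44, SE 0.030, edgeR adjusted p = 4.02e-18). CLK2 was higher by 0.58 (SE 0.029, edgeR adjusted p = 2.57e-23) and HNRNPH1 by 0.50 (SE 0.025, edgeR adjusted p = 1.13e-23). The list was divided, with 9 of 21 higher and 6 lower in batch 2, CLK1 and CLK4 among the lower. Of the RBMX and hnRNP A and D proteins 7 of 10 were higher and 1 lower. Of the bound or stabilised mRNAs 4 of 9 were higher and 5 lower, and of the clock genes 5 of 21 higher and 6 lower. Of the hypoxia genes 2 of 16 were higher and 8 lower, and of the regulators 1 of 11 higher and 5 lower. Over all tested genes 29.2% were called higher and 27.9% lower, so many calls are met in any list here. RBM3 was at -0.01 and CIRBP at 0.41 in the same comparison.

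**Figure D5:**
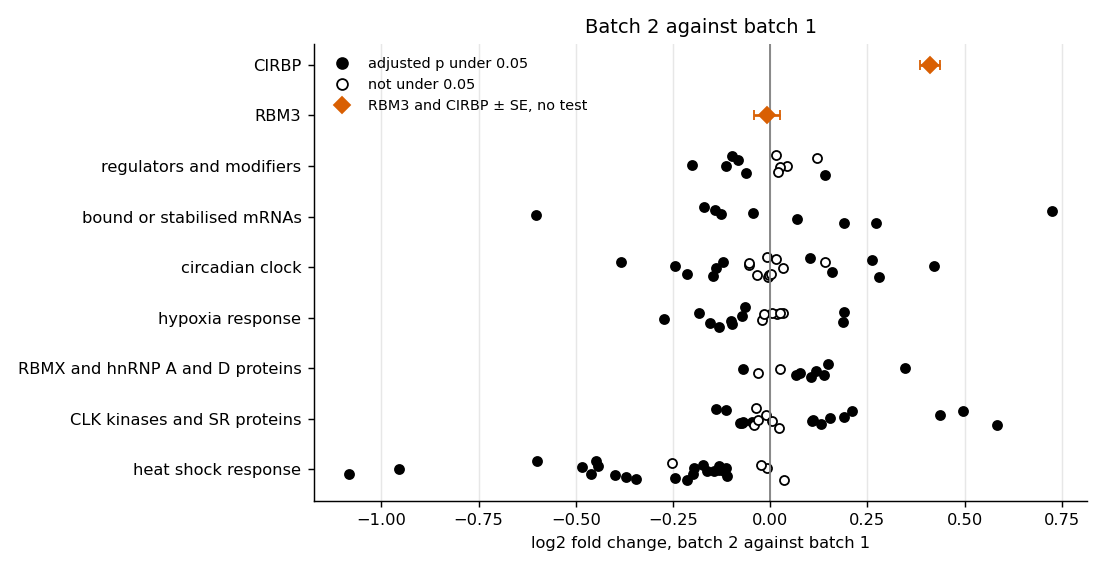
Fitted log2 fold change of batch 2 against batch 1, 1 point per tested gene of each list, filled where edgeR's adjusted p was under 0.05, with RBM3 and CIRBP (orange, ± SE, no test) above. CIRBP is at 0.41 and RBM3 at -0.01, and 22 of 26 heat shock genes are called lower.

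No call against control was made for TBC1D25, WDR13, MIDN or C19orf24, which flank the 2 genes, or for AC115618.1, AC115618.2 and AC115618.3 at RBM3 or CIRBP-AS1 at CIRBP (smallest edgeR adjusted p of 0.227, for WDR13, which also moved with CIRBP across libraries, r = 0.57). CIRBP-AS1, which overlaps CIRBP on the reverse strand, was at 5.15 to 8.52 CPM and lower in batch 2 (-0.14, edgeR adjusted p = 0.022), the opposite of CIRBP. AC115618.2 and AC115618.3, at no more than 8.80 and 5.02 CPM, lie beyond the deposited end of RBM3 and overlap the longer gene that RefSeq gives, which ends at 48581162. They correlated with RBM3 at 0.392 and 0.378. Whether counting used strand is not stated in the sources used here, so reads of a gene and of its antisense partner cannot be told apart. The file named no gene as a copy of RBM3 or CIRBP.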

How the data were processed

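HEK293T cells were profiled by poly(A) RNA-seq in 46 libraries of 12 groups. The authors deposited raw counts per gene (GENCODE release 29 features) with a gene length in bases, a column of unit "other"; the submitters' processing notes name GRCh38.p12, R 4.3.0, DESeq2 1.40.2 and limma 3.56.2, and the aligner, counter and strand setting are not given in the sources used here. Groups follow the labels, and batches follow the replicate numbers as the study's methods state. RBM3, CIRBP and the gene lists were chosen with earlier results of these data known.

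Counts were kept by filterByExpr (minimum count 10, 20272 genes), scaled by TMM and fitted over all 46 libraries by group and batch with edgeR 4.0.16 in R 4.3.3 (glmQLFit, glmQLFTest), with Benjamini-Hochberg adjustment and a threshold of 0.05. An SE is the log2 fold change divided by the root of its F statistic. CPM are TMM-scaled, log2 CPM carry a prior count of 2, and RPKM use the deposited lengths. On simulated counts for COX2 minus COX1 (19855 genes) the fit called 93 of 100 genes changed by 0.5 on the log2 scale and 100 of 100 changed by 1, with 11 calls among unchanged genes. The simulated counts held no batch or replicate effect, and only genes with a mean of at least 10 CPM were changed. They check the code and do not measure the share of true changes called in the real libraries. Depths were 18876395 to 100698084 counts per library.

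Replicate numbers paired the libraries by the rule used: deviations from group means of same-numbered libraries correlated by 0.514 on average (lowest 0.168, 242 pairs), and by 0.0449 once batch means were removed. Libraries of the same batch with another number correlated by 0.445 (243 pairs). The main fit held a batch term and no replicate term, so differences between replicates of a batch remain in its spread. No 2 libraries of a group were alike within sampling noise (chi-square per degree of freedom of 4.44 to 42.7 over 66 pairs). Named genes were, from each list, the called members (at most 4) or, with none called, the 2 of smallest p; for likeness, the 5 highest and 3 lowest correlations; and the genes beside or overlapping the 2. Alternatives were DESeq2 1.42.0, other normalizations and filters, no batch term, a replicate block, single batches, the groups compared alone and each library left out. Sequences and motif shares come from RefSeq start sites on GRCh38.p14.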

Additional observations from a re-analysis of the deposited data

Results flagged for a closer look

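Among 60 groups of 4 libraries screened for a library far from the others, 2 were met, and chance alone flags about 1 in 20 groups. CLK4 in ATP8 replicate 2 was at 22.3 CPM, with the nearest library at 19.5 CPM and the lowest at 19.3 CPM. CLK1 in COX1 replicate 3 was at 64.3 CPM, with the nearest at 59.1 CPM and the lowest at 58.2 CPM. No RBM3 or CIRBP group had such a library. The screen used CPM with no batch mean removed, and CIRBP differed between the batches, so it says little about the CIRBP groups.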

How the results depend on the processing

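The RBM3 difference between COX2 and COX1 kept its direction in every alternative run (0.34 to 0.53 on the log2 scale), and that of CIRBP stayed between 0.01 and 0.12. Both genes were chosen by such levels in the same libraries, so these runs are a description and no separate check. Genes called between COX2 and COX1 numbered 8, and 4 without the batch term, 13 with a replicate block, 29 with no filter and 5 in batch 2 alone; with 1 library left out they numbered 5 to 9 (5 without COX1 replicate 2 or COX2 replicate 3). List genes called against control numbered 4, and 0 without the batch term, 9 with a replicate block, 18 by DESeq2, 27 with no filter, 17 when only the groups compared were fitted, and 0 in batch 1 alone; with 1 library left out they numbered 0 to 6 (0 without control replicate 4, 1 without control replicate 3, 2 without COX2 replicate 2). The calls for CLK4, CLK1 and FKBP4 were also lost without the batch term and in either batch alone, that for SRSF9 without the batch term and in batch 1 alone, and that for FKBP4 with library sizes from nuclear genes (edgeR adjusted p = 0.0551). The cause was not tested. The replicate block changed no other call. The share of all tests called under the alternatives is not given here, so their list counts stand without a background. Each group held 3 or 4 libraries over 2 batches, the 11 treatments share 4 control libraries, and the effect of depth was not tested. The replicate 4 and replicate 3 contrast and the alternatives of the batch difference were chosen after seeing the data.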
